A study of Schizosaccharomyces pombe with 4 samples.

Results

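The non-coding transcription units (nc-TUs) added to the annotation of *Schizosaccharomyces pombe* form a class of their own among the 11620 transcripts of a deposited RNA-Seq table that compares *rrp6Δ* cells with wild-type (WT) cells. All entries of that type were taken. They were divided by what lies on the same strand: 267 overlap by at least 1 nt an entry for a gene or for an unstable RNA of the kinds called CUT and XUT, and 220 overlap none of these. The *rrp6Δ* strain lacks the gene for a nuclear exoribonuclease, and the WT strain carries it. Each strain was sequenced as 2 libraries labelled biological replicates, from rRNA-depleted total RNA with ERCC spike-in RNA. The strains of the study were grown in YES or EMMG medium, but the sources used here do not say which these cultures had, nor whether the replicates were grown separately, so the p-values measure only the spread between libraries. The units ran between 201 and 3829 nt in length (median 376 nt), and 245 lie on chromosome I, 142 on chromosome II and 100 on chromosome III, with 250 on the forward and 237 on the reverse strand.

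The nuclear exosome degrades RNA from its 3′ end, and Rrp6 is a catalytic subunit that it carries in the nucleus. Transcripts that are scarce in WT because the exosome removes them are called cryptic unstable transcripts (CUTs), and those removed in the cytoplasm by the 5′ to 3′ enzyme are called XUTs. In fission yeast the RNA-binding protein Mmi1 directs some RNAs to this nuclear pathway through copies of a short motif, written TNAAAC in DNA, and several long non-coding RNAs are known to repress a neighbouring gene while they are transcribed. The CUT entries of this table were chosen in these same libraries for being more than 2-fold higher in *rrp6Δ*, so the change of a unit that overlaps one was in part fixed by that choice. The units themselves come from a set that the study cites from earlier work.

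Sequences of 4 units are given for the loci on which the results turn, from the ASM294v3 assembly, 5′ to 3′ along the unit. novelncTU_451 (chrIII:950006-950237, reverse strand) and novelncTU_456 (chrIII:1337329-1337594, reverse strand) overlap no entry and had the largest rises under the naming rule. novelncTU_430 (chrII:4351432-4351649, reverse strand) lies on a CUT and had the largest rise of all. In these 3, capitals mark TNAAAC, which was searched on the strand of the unit. Only novelncTU_456 holds it, at 3 sites.
novelncTU_451: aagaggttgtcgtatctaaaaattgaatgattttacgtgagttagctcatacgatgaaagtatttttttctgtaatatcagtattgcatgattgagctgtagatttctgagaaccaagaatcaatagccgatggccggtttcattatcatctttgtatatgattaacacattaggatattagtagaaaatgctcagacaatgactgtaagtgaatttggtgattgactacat
novelncTU_456: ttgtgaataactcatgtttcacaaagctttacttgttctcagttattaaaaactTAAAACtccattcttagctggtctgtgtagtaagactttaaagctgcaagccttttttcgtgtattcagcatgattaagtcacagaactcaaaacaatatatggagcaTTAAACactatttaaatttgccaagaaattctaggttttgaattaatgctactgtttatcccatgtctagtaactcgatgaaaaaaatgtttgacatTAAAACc
novelncTU_430: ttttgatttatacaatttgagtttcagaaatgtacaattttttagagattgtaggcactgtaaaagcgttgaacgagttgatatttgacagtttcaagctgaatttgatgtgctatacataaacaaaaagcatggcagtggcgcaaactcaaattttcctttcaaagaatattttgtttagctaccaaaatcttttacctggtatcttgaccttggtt
novelncTU_468 (chrIII:1717920-1718144, reverse strand) was the most abundant unit that overlaps no entry. Capitals here mark the 168 nt that RefSeq annotates as snR46, a small nucleolar RNA.
novelncTU_468: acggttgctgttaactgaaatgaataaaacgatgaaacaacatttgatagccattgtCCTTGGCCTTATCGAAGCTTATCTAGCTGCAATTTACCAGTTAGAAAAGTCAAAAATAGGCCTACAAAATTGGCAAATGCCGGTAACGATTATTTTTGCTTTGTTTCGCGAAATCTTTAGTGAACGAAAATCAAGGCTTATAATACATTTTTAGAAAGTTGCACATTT

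The libraries held 64913330 to 82419985 recovered reads over the transcripts used, of which rRNA took 26.7% to 31.3%. *rrp6* itself had 7.38 and 8 normalized read counts in *rrp6Δ*, against 2352 and 2842 in WT, as the labels say. A normalized read count is the reads of a transcript times a scaling factor of the library, and a density is that count per nt (tag/nt). Of genes that mark other cell states, all 6 sporulation genes rose (summed counts of 8272 and 8721 in *rrp6Δ*, against 1859 and 2162 in WT), 2 of 6 M-cell genes rose (summed counts 3447 and 3633 against 2557 and 2523) and 0 of 3 P-cell genes did (19302 and 20073 against 20121 and 19491). None of these marker genes was at 0. Of all coding genes tested, 6.39% rose by the rule given below. The paper describes a role of the nuclear exosome in removing meiotic transcripts in mitotic cells, and its part in these rises was not tested. In such bulk RNA, a change in the number of cells of a type and a change in RNA per cell cannot be told apart. The part of these cell states in the changes of the units was not tested.

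A transcript was called higher or lower when limma gave an adjusted p under 0.05, by Benjamini-Hochberg over all 11227 transcripts tested, and the change was more than 2-fold. Of the units, 399 had enough reads to be tested. In *rrp6Δ*, 135 of the 399 were called higher, which is 33.8%, while 42.6% of all transcripts tested were, and 6 of the 399 were called lower, against 0.570% of all. The median log2 fold change of the tested units was 0.59 (SD 0.10 over the 4 pairs of libraries), and that of all transcripts tested was 0.66. Both *rrp6Δ* libraries lay above both WT libraries at 67.9% of the tested units and at 79.0% of all transcripts tested. The table as a whole holds the CUTs, of which 2507 of 2509 were called higher because they were chosen so. Among all other transcripts tested 26.1% were called higher and 0.734% lower, with a median of 0.41. The 33.8% of the units is not like that share, since the 135 include 57 of the 63 units that overlap a CUT. By type the share called higher was 6.39% of coding genes (median 0.26), 49.5% of annotated ncRNAs and 60.7% of XUTs. None of these differences from the units was tested. The split of the units moved little with library totals (130 called higher and 8 lower) and more with TMM factors from coding genes (109 and 11). DESeq2 size factors in limma left 68 units called higher and 34 lower, TMM factors from all entries 75 and 27, and quantile normalization 29 and 170.

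The units that overlap an entry and those that overlap none differed in level. The 220 units without an entry had a median of 13.2 normalized read counts in *rrp6Δ* and 9.43 in WT, and the 267 units with one had 143 in *rrp6Δ* and 81.1 in WT. Only 133 of the 220 could be tested, against 266 of the 267. Among the 133, 35 were called higher (26.3%) and 5 lower, with a median log2 fold change of 0.38, which turned negative under 3 scalings, TMM from all entries (-0.16), size factors of DESeq2 (-0.28) and quantiles (-1.46). Among the 266, 100 were called higher (37.6%) and 1 lower, with a median of 0.68, which was -0.60 with quantile normalization. The 37.6% follows in part from the choice of the CUTs for a rise in these libraries. On CUTs 57 of 63 units were called higher, on XUTs without a CUT 13 of 81 (16.0%), and on genes alone 30 of 122 (24.6%). The difference between both groups of units was not tested.

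**Figure D1:**
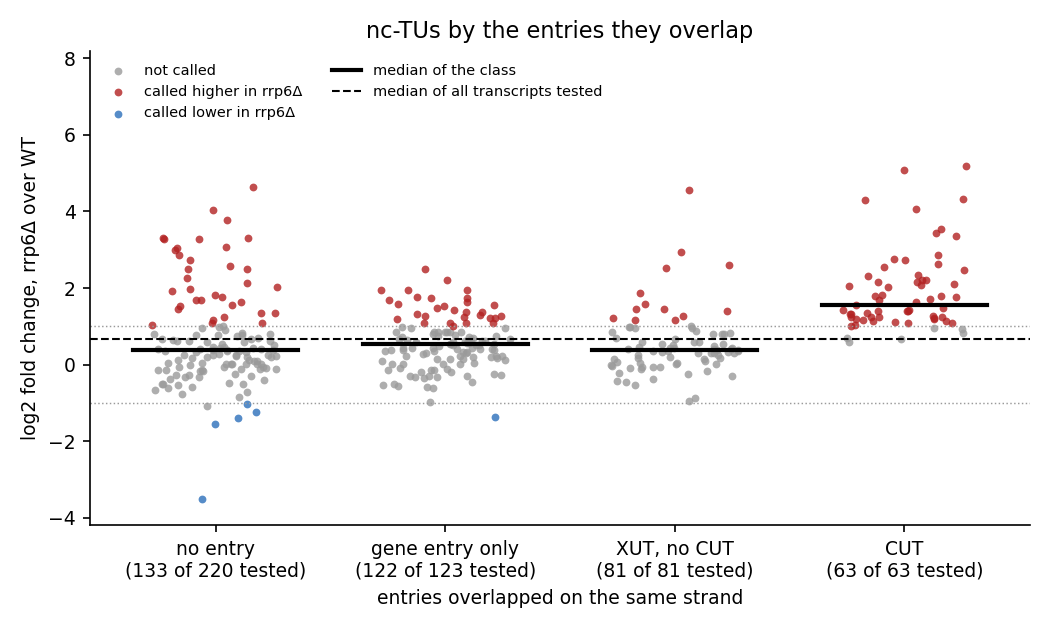
Log2 fold change (*rrp6Δ* over WT) of each tested unit, by the entries it overlaps on its strand, with the median of each class as a bar and that of all transcripts tested as a dashed line. The median is 0.38 for units that overlap no entry, which turns negative under TMM from all entries, size factors of DESeq2 or quantiles, and 1.57 for units on CUTs, a class chosen for being higher in *rrp6Δ*.

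Among the units that overlap no entry, 7 met the naming rule for a rise. novelncTU_451 lies between *ade10*, a gene of purine synthesis, and *trm8*, which encodes a tRNA methyltransferase, 489 nt beyond the end of *trm8* and 321 nt before the start of *ade10*, all on the reverse strand. It had 686 and 713 normalized read counts in *rrp6Δ*, against 39.8 and 43.7 in WT. The strains did not overlap, and the log2 fold change was 4.04 ± 0.18 (SE, limma adjusted p = 1.92e-11). *ade10*, which the unit precedes on the same strand, had a log2 fold change of -0.79 ± 0.09 (adjusted p = 7.25e-07), which is less than 2-fold.

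novelncTU_456 lies 1132 nt before *gdh2*, a glutamate dehydrogenase gene, with no coding gene on the other strand. It had 244 and 292 normalized read counts in *rrp6Δ*, against 32.7 and 21.1 in WT, a log2 fold change of 3.31 ± 0.24 (limma adjusted p = 4.43e-09). Neither of these units overlaps a coding gene on either strand. The same holds for novelncTU_291 (chromosome I, 2667807 to 2668018, reverse strand), 63 nt beyond the end of *mrps12*, a mitochondrial ribosomal protein gene. It had 55.8 and 61 normalized read counts in *rrp6Δ*, against 4.42 and 2.91 in WT (log2 fold change 3.77 ± 0.37).

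The other 5 named risers lie opposite coding genes. novelncTU_257 (chromosome I, 389663 to 390161, reverse strand) faces *mrp11*, which encodes a mitochondrial ribosomal protein, and had 765 and 723 normalized read counts in *rrp6Δ*, against 79.5 and 98.4 in WT (log2 fold change 3.06 ± 0.17, limma adjusted p = 2.14e-10). Its density was 83.3% and 73.6% of that of *mrp11* in *rrp6Δ*, and 7.86% and 7.21% in WT. novelncTU_340 (chromosome I, 4833262 to 4834638, reverse strand) faces *aap1*, an amino acid permease gene, and had 717 and 832 in *rrp6Δ*, against 148 and 173 in WT (log2 fold change 2.27 ± 0.16). In both cases the unit stood at over 50% of its opposite gene in *rrp6Δ* and at about 10% or less in WT.

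novelncTU_218 (chromosome III, 526084 to 526731, forward strand) faces *med31*, which encodes a Mediator subunit. It had 279 and 272 normalized read counts in *rrp6Δ*, against 71.6 and 101 in WT (log2 fold change 1.69 ± 0.20). novelncTU_50 (chromosome I, 2714520 to 2717156, forward strand), at 2637 nt the longest unit without an entry, faces the calcium pump gene *pmc1*. It had 256 and 279 in *rrp6Δ*, against 116 and 137 in WT (log2 fold change 1.08 ± 0.18, limma adjusted p = 5.69e-05). This last call was lost without WT replicate 1 (log2 fold change 0.96), with DESeq2 size factors (0.42), with TMM over all transcripts (0.54) or coding genes (0.83), and with quantile normalization, which turned it to -0.17. The call of novelncTU_218 was lost with quantile normalization (0.37).

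novelncTU_344 (chromosome I, 4964874 to 4966324, reverse strand) faces *clr2*, which encodes a subunit of the SHREC silencing complex. It had 392 and 463 normalized read counts in *rrp6Δ*, against 49.5 and 56.8 in WT (log2 fold change 2.99 ± 0.19, limma adjusted p = 9.39e-10). It is 1 of 5 units without an entry in a stretch of 36711 nt on the reverse strand of chromosome I, which was picked out after the values were seen. All 5 were called higher, with log2 fold changes of 2.51 to 3.30. The share called higher was 26.3% of all tested units without an entry and 42.6% of all transcripts tested. With quantile normalization novelncTU_342 (0.67) and novelncTU_345 (0.78) lost the call. novelncTU_345, also opposite *clr2*, had 121 and 165 in *rrp6Δ*, against 23.9 and 24.8 in WT. novelncTU_342 and novelncTU_343 lie opposite *not3*, a gene of the CCR4-Not deadenylase complex, and novelncTU_346 lies opposite *otu2*, which encodes a deubiquitinating enzyme. novelncTU_346 had 100 and 107 in *rrp6Δ*, against 13.3 and 7.29 in WT. Units opposite the same gene share their target and are not independent.

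The strands differed among units without an entry: 26 of the 68 tested on the reverse strand were called higher (38.2%), and 9 of the 65 on the forward strand (13.8%). Among units that overlap an entry the shares were 34.1% (44 of 129) on the reverse and 40.9% (56 of 137) on the forward strand, and among all transcripts tested 42.5% and 42.6%. The split by strand was not among the results set in advance, and these shares are descriptions with no test. The 26 include the 5 units of the stretch above, which was picked out after the values were seen. novelncTU_133 (chromosome II, 412016 to 412350, forward strand) had the largest log2 fold change of the units without an entry, 4.65 ± 0.31, but lay below the expression limit of the naming rule. It faces *cys2*, which encodes homoserine O-acetyltransferase of the sulfur amino acid pathway, and had 130 and 162 normalized read counts in *rrp6Δ*, against 4.42 and 5.83 in WT. *cys2* itself had 3458 and 3785 in *rrp6Δ*, against 5447 and 5140 in WT, a log2 fold change of -0.55 ± 0.11 (limma adjusted p = 0.000206).

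**Figure D2:**
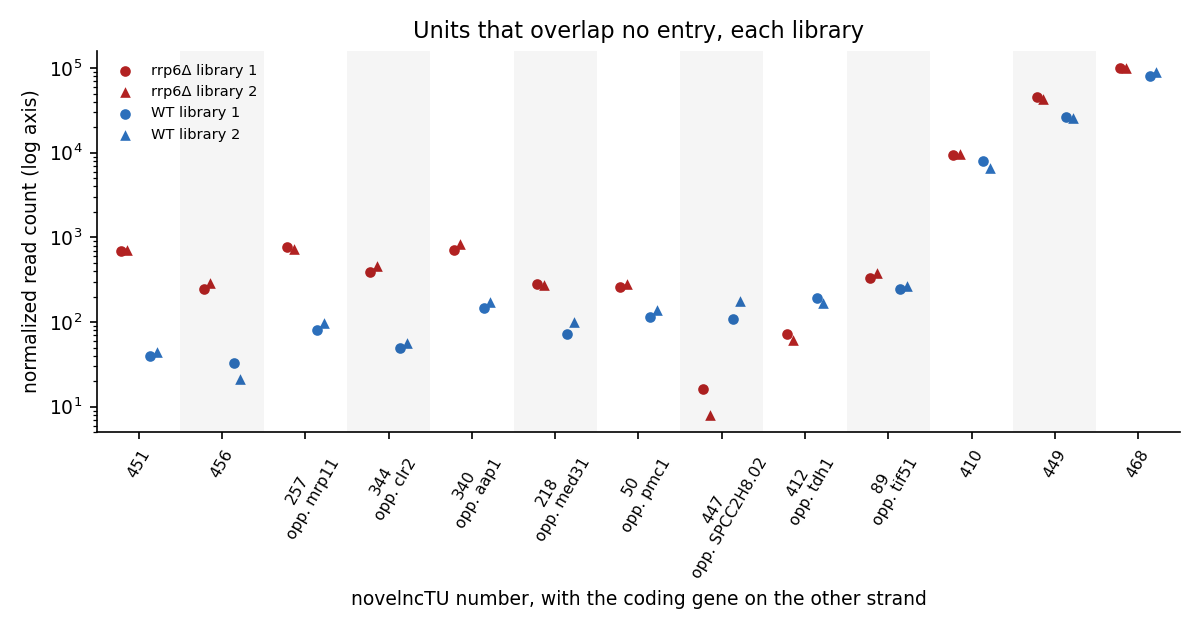
Normalized read count (log axis) of 13 units that overlap no entry in each of the 4 libraries, *rrp6Δ* in red and WT in blue, with the coding gene on the other strand where there is one (opp.). In the 7 units on the left both *rrp6Δ* libraries lie above both WT libraries, as for novelncTU_451 with 686 and 713 against 39.8 and 43.7, and in novelncTU_447 and novelncTU_412 they lie below.

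Most units without an entry lie inside genes of the other strand. Of the 220, 198 are antisense to a coding gene, 189 lie wholly inside the gene on the other strand, and 146 lie wholly opposite coding sequence. The 198 face 173 distinct genes, with 49 units sharing their gene with another unit, and *tef3* faced by 3. The genes they face were abundant: the median one stood at the 81.8th percentile of density among coding genes in WT. The density of each unit was therefore set against that of the gene it faces. The median unit reached 0.269% and 0.299% of it in the *rrp6Δ* libraries, and 0.155% and 0.154% in the WT libraries.

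In 121 of the 198 the unit stayed under 1% of the opposite gene in all 4 libraries, a limit chosen after the values were seen. Because it had to hold in *rrp6Δ* too, a unit that is higher there is less likely to meet it, so the changes of units on both sides of the limit are not compared. For the 89 units that face a gene in the top 10% of density, 85 stayed under 1% in all 4. The medians of the 89 were 0.116% and 0.0924% in *rrp6Δ* and 0.0910% and 0.0663% in WT. The density of the gene divides this percentage, so low values opposite abundant genes follow in part from how the 89 were picked. At the very top, novelncTU_397 stood at 0.0383% and 0.0290% of *fba1*, the fructose-bisphosphate aldolase gene, in *rrp6Δ*, and at 0.0417% and 0.0267% in WT. Units opposite *gpm1*, *pgk1* and *eno101*, also genes of glycolysis, lay between 0.0245% and 0.0577% in the 4 libraries (novelncTU_122, novelncTU_201 and novelncTU_404). How far reads assigned to the wrong strand contribute was not tested.

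**Figure D3:**
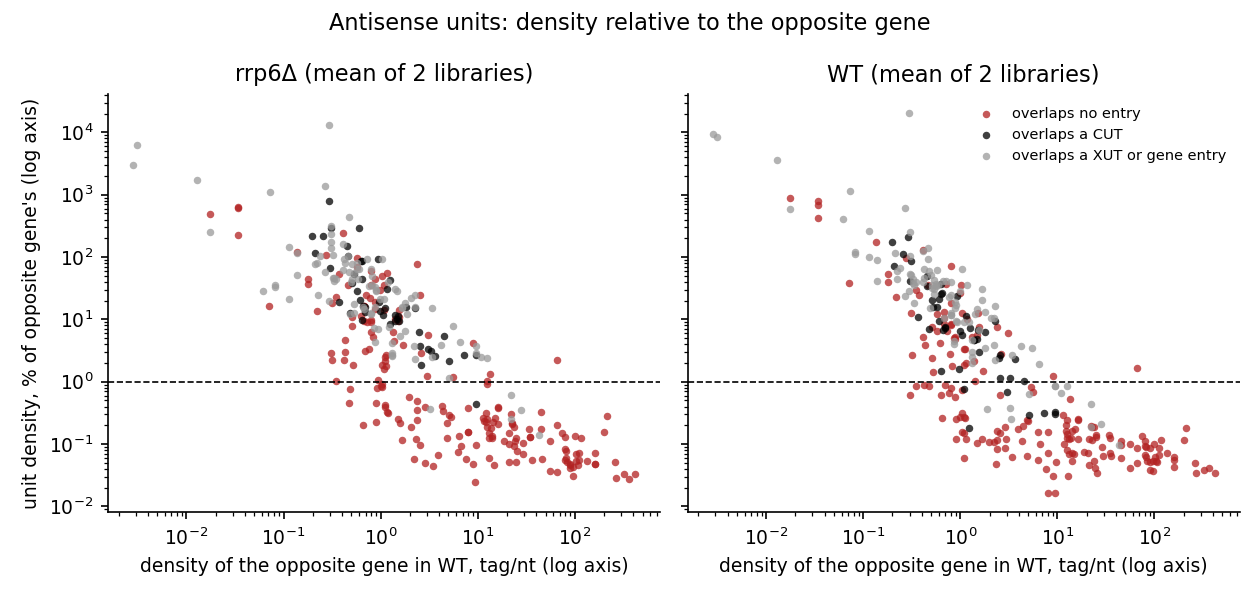
Density of each antisense unit as a percentage of the density of the coding gene opposite (log axis), against the density of that gene in WT (tag/nt, log axis), in *rrp6Δ* on the left and WT on the right, with the dashed line at 1%. The density of the gene enters both axes, and 6 units at 0 in *rrp6Δ* and 10 in WT are not drawn. Units that overlap no entry (red) lie mostly under the line where the gene is abundant, as in the 85 of 89 that face the top 10%.

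None of the 28 genes opposite the 31 antisense units without an entry that were called higher was itself called in either direction by limma, where 6.39% of all coding genes tested were called higher and 0.591% lower. Of these units, 20 of the 31 (64.5%) faced a gene with a log2 fold change below 0. That share was 50.6% for the 79 antisense units called neither way, and 19.8% of all coding genes tested were below 0. Among the 73 antisense units with an entry that were called higher, 18 (24.7%) faced a gene below 0, 2 faced a gene called higher, and the median gene opposite stood at 0.21. The units share libraries with the genes, and no test was made. Shares below 0 depend on the scaling. The median of coding genes was 0.26, and TMM over coding genes shifted the median of all transcripts tested by -0.25. The shares were not matched for the density of the genes.

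Of the 133 tested units without an entry 5 were called lower (3.76%, against 0.570% of all transcripts tested), and 1 of them met the naming rule. novelncTU_412 (chromosome II, 2807654 to 2808882, reverse strand) faces *tdh1*, the glyceraldehyde-3-phosphate dehydrogenase gene, and had 73.0 and 62 normalized read counts in *rrp6Δ*, against 192 and 166 in WT (log2 fold change -1.40 ± 0.21, limma adjusted p = 1.49e-05). *tdh1* had 277322 and 328919 in *rrp6Δ*, against 508139 and 591320 in WT (log2 fold change -0.86 ± 0.09), and the unit stood at 0.0325% and 0.0233% of its density in *rrp6Δ* and 0.0466% and 0.0347% in WT. Of the 50-mers in this unit, 19.8% occur elsewhere in the genome.

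Another 3 of the 5 were low and also under 1% of the gene opposite. novelncTU_199 faces *ilv5*, a gene of branched-chain amino acid synthesis, and had 6.56 and 4 normalized read counts in *rrp6Δ*, against 19.4 and 13.8 in WT (log2 fold change -1.55 ± 0.44), and *ilv5* had a log2 fold change of -0.89 ± 0.08. novelncTU_466 faces *tef3*, which encodes a translation elongation factor, and had 10.7 and 6 in *rrp6Δ*, against 25.6 and 15.3 in WT (-1.23 ± 0.42). *tef3* had a log2 fold change of -0.36 ± 0.08. novelncTU_213 faces *SPCC553.10* and had 18.9 and 24 in *rrp6Δ*, against 49.5 and 39.3 in WT (-1.03 ± 0.30). *SPCC553.10* moved the other way, at 0.54 ± 0.10 (limma adjusted p = 0.000122), which is less than 2-fold. All 3 calls were lost with DESeq2 on the deposited factors and on leaving out libraries: novelncTU_199 without *rrp6Δ* replicate 2 (-1.23), novelncTU_466 without *rrp6Δ* replicate 2 (-0.85) or WT replicate 1 (-0.87), and novelncTU_213 without *rrp6Δ* replicate 1 (-0.86) or WT replicate 1 (-0.86).

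The fifth faced a gene called higher. novelncTU_447 had 16.4 and 8 normalized read counts in *rrp6Δ*, against 110 and 178 in WT, with a log2 fold change of -3.52 ± 0.34 (limma adjusted p = 9.38e-08). It lies wholly inside *SPCC2H8.02*, which RefSeq names *pho843* and describes as an inorganic phosphate transporter. *SPCC2H8.02* had 11109 and 12073 in *rrp6Δ*, against 3114 and 3110 in WT, and was called higher with a log2 fold change of 1.90 ± 0.10 (adjusted p = 1.10e-10). The density of the unit was 1.14% and 0.513% of that of the gene in *rrp6Δ*, and 27.3% and 44.3% in WT. It was the only tested antisense unit called lower opposite a gene called higher. RefSeq annotates a long non-coding RNA, SPNCRNA.7049, on its strand.

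**Figure D4:**
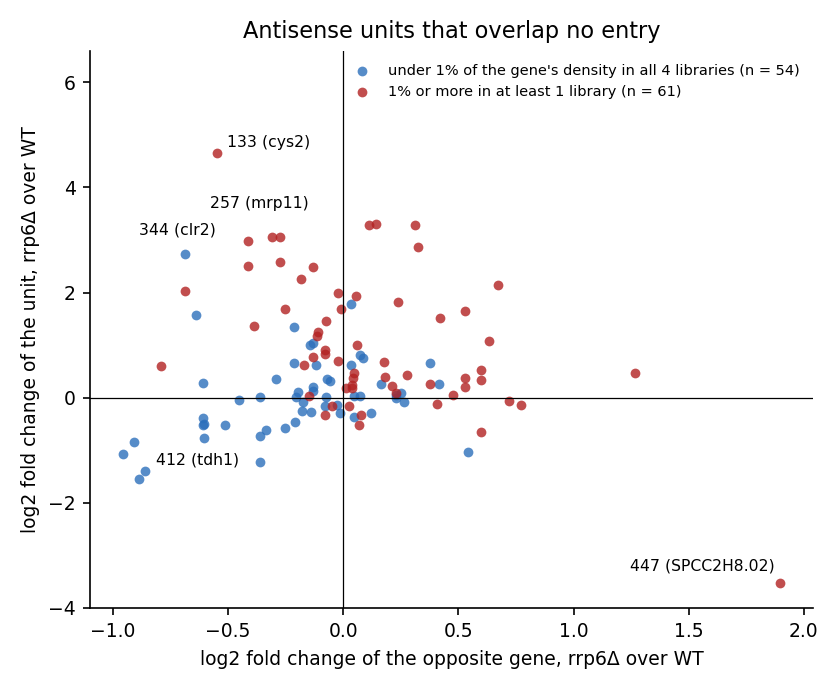
Log2 fold change (*rrp6Δ* over WT) of the 115 tested antisense units that overlap no entry, against that of the coding gene opposite, with units under 1% of the gene's density in all 4 libraries in blue and the others in red. The limit had to hold in *rrp6Δ* too, which selects against rises, so the changes of blue and red units are not compared. novelncTU_447 stands alone at the lower right, at -3.52 against 1.90 for *SPCC2H8.02*.

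Of the 5 most abundant units, those other than novelncTU_449 were small RNAs with a known place. novelncTU_468 had 99902 and 99248 normalized read counts in *rrp6Δ*, against 79881 and 88866 in WT (log2 fold change 0.24 ± 0.08, limma adjusted p = 0.0174), less than 2-fold and below 0 with TMM factors. RefSeq puts the 168 nt of snR46 inside it on the same strand, at 1717920 to 1718087, with 57 nt of the unit before it. The deposited table has its snR46 entry at exactly those coordinates on the forward strand, with 16.4 and 15 normalized read counts in *rrp6Δ*, against 28.3 and 22.6 in WT. The unit held 6089 and 6617 times the value of that entry in *rrp6Δ*, and 2825 and 3934 times in WT, so it overlaps no entry only because of the strand the table gives to snR46.

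The case of *snu4*, the U4 snRNA of the spliceosome, is alike. novelncTU_372 (chromosome II, 467233 to 467611, reverse strand) had 118456 and 120288 normalized read counts in *rrp6Δ*, against 92518 and 71299 in WT (log2 fold change 0.56 ± 0.10). The table places *snu4* at 467233 to 467361, where it had 12.3 and 13 in *rrp6Δ*, against 13.3 and 24.0 in WT. RefSeq places it at 467489 to 467615 on the same strand, and 123 of those 127 nt fall in the unit. novelncTU_269 overlaps *snu3*, the U3 snoRNA, and had 646492 and 594209 in *rrp6Δ*, against 362183 and 346258 in WT (0.81 ± 0.08). In all, 6 units lie on a small nuclear or nucleolar RNA of RefSeq. The 5 most abundant units held 88.9% to 89.9% of all reads of nc-TUs in *rrp6Δ* and 87.5% to 88.2% in WT. These 5 include novelncTU_449, which is not among the 6. novelncTU_182, on U5 and on a CUT, had 4403 and 4343 in *rrp6Δ*, against 1183 and 961 in WT (2.04 ± 0.12). These units were named after their values were seen.

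Next in density among units without an entry, novelncTU_449 (chromosome III, 926478 to 926725, reverse strand) had 45061 and 43430 normalized read counts in *rrp6Δ*, against 26243 and 25724 in WT (log2 fold change 0.77 ± 0.09). The annotated SPNCRNA.475 opposite had 17.2 and 8 in *rrp6Δ*, against 16.8 and 8.01 in WT. novelncTU_410 (chromosome II, 2641195 to 2641572, reverse strand) had 9327 and 9579 in *rrp6Δ*, against 8069 and 6679 in WT (0.36 ± 0.11), opposite SPNCRNA.403. RefSeq has non-coding RNAs on the strand of both, SPNCRNA.7111 and SPNCRNA.5756. Over all the units, 40 face an annotated ncRNA on the other strand, 7 of them among the units without an entry. RefSeq covers at least 50% of 155 units with a long non-coding RNA of the same strand, 81 of them among the 220.

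Other units without an entry changed little. novelncTU_89, opposite *tif51*, which encodes translation factor eIF5A, had 332 and 376 normalized read counts in *rrp6Δ*, against 247 and 265 in WT (log2 fold change 0.47 ± 0.16), and stood at 2.11% and 2.34% of that gene in *rrp6Δ* and at most 1.83% in WT. novelncTU_289, among the least changed, had 398 and 447 in *rrp6Δ*, against 416 and 506 in WT (-0.12 ± 0.16, limma adjusted p = 0.498). novelncTU_233, opposite *dad5*, a gene of the DASH kinetochore complex, had 362 and 381 in *rrp6Δ*, against 374 and 436 in WT (-0.12 ± 0.16). novelncTU_45, opposite the spindle checkpoint gene *bub3*, had 106 and 110 in *rrp6Δ*, against 95.4 and 95.4 in WT (0.18 ± 0.20), and its density was 89.5% to 109% of that of *bub3*. The strains overlapped at novelncTU_289 and novelncTU_233 but not at novelncTU_45, and none of the 3 passed the test.

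Of the units that overlap an entry, 63 overlap a CUT, 81 a XUT but no CUT, and 123 only a gene. On CUTs the median log2 fold change was 1.57, and 57 of the 63 met the call, values that follow in part from the choice of the CUTs and are given as a description. The 81 on XUTs had a median of 0.38, with 13 called higher and 0 lower by limma. The 122 tested units on genes alone had a median of 0.53, with 30 called higher and 1 lower, against 0.66 and shares of 42.6% and 0.570% for all transcripts tested. Nearly all of the units on genes lie in untranslated parts: of 146 that overlap a coding gene on the same strand, 142 hold no coding sequence of that strand and 133 lie wholly inside the gene entry. Another 5 lie on *wtf* pseudogenes, a repeated family.

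The 6 named risers of this group all lie on CUTs, and 5 of them are divergent, which means that the unit runs away from the start of a coding gene within 500 nt. novelncTU_430, divergent from the ribosomal protein gene *rpl3201* at 161 nt, had 2167 and 2414 normalized read counts in *rrp6Δ*, against 52.1 and 74.3 in WT (log2 fold change 5.18 ± 0.18). It holds 96.7% to 98.4% of the reads of CUT668 in 50.2% of its length, so both entries report the same reads. *rpl3201* had a log2 fold change of -0.06 ± 0.11. novelncTU_415, divergent from *rpl102*, another ribosomal protein gene, at 149 nt, had 1065 and 1061 in *rrp6Δ*, against 83.1 and 99.1 in WT (3.54 ± 0.16).

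novelncTU_9, divergent from *erd1* at 74 nt, had 376 and 410 normalized read counts in *rrp6Δ*, against 23.0 and 22.6 in WT (log2 fold change 4.06 ± 0.21). novelncTU_247 starts 12 nt from *SPCC70.02c*, which RefSeq names *inh1*, an ATPase inhibitor, and had 970 and 876 in *rrp6Δ*, against 73.4 and 96.2 in WT (3.44 ± 0.18). novelncTU_332, divergent from *pdx3* at 187 nt, had 246 and 249 in *rrp6Δ*, against 33.6 and 37.9 in WT (2.77 ± 0.21). The last of the 6, novelncTU_183, is antisense to *mug16*, and had 529 and 617 in *rrp6Δ*, against 20.3 and 38.6 in WT (4.31 ± 0.25). Its density was 297% and 295% of that of *mug16* in *rrp6Δ* and 14.9% and 27.6% in WT. Of the 5 divergent units, novelncTU_9, novelncTU_415 and novelncTU_332 also overlap a coding gene of the other strand over 41.0%, 41.4% and 43.0% of their length (*SPAC227.19c*, *rbd1* and *ppr5*). In each of the 6 units both *rrp6Δ* libraries lay above both WT libraries.

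The single fall in this group was novelncTU_215 (chromosome III, 361866 to 362327, forward strand), within *SPCC594.03* on the same strand. It had 32.8 and 27 normalized read counts in *rrp6Δ*, against 57.4 and 106 in WT (log2 fold change -1.37 ± 0.30, limma adjusted p = 0.000584), and the call was lost without WT replicate 2 (-0.93). The gene entry itself had 50.9 and 40 in *rrp6Δ*, against 84.0 and 144 in WT. novelncTU_436, within *pdh1*, had 17466 and 17355 in *rrp6Δ*, against 21686 and 21851 in WT (-0.32 ± 0.09), and held 93.0% to 93.4% of the reads of the *pdh1* entry in *rrp6Δ* and 96.1% to 96.2% in WT, in 11.6% of its length. The level of *pdh1* in the table is therefore mostly that of the unit. Both units were named after their values were seen.

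By position, 346 units are antisense, with at least 50% of their length on a coding gene of the other strand, 36 are divergent and 32 are in no class. The 73 units called downstream overlap a coding gene of the same strand or start within 500 nt beyond its end. Of these 73, 60 overlap only a gene entry. Apart from the antisense units, 12 overlap a coding gene of the other strand over less of their length. The counts that follow stand beside 42.6% called higher and 0.570% lower among all transcripts tested. Antisense units that overlap an entry had a median log2 fold change of 0.99 (147 tested, 73 called higher), and those that overlap none had 0.27 (115 tested, 31 called higher and 5 lower). Of the 73, 42 came from the 48 antisense units that overlap a CUT, a class chosen for a rise in these libraries. Of 36 divergent units, 14 were called higher (38.9%), all of them among the 30 that overlap an entry. These 14 include all 10 divergent units that overlap a CUT, so the share follows in part from that choice. By limma 0 of the 6 divergent units without an entry were called, and their log2 fold changes ran from 0.36 to 0.96. Of 72 tested downstream units, 10 were called higher and 1 lower, with a median of 0.30. Only 5 of the 35 called higher without an entry lay within 500 nt of a CUT on their own strand, and 14 of the 98 others tested.

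In base composition both groups of units differed. Units without an entry had a median GC content of 42.6% and those with one 36.6%, while CUTs had 33.8% and the whole genome 36.1%. TNAAAC was found on the strand of the unit in 45.5% of the units without an entry, whose median length is near 320 nt, and in 46.1% of all genome tiles of 320 nt. Over all the units it was found in 50.1%, against 51.6% of genome tiles of 376 nt. The density of the motif was 1.44 per kb in units without an entry, 1.72 per kb in units with one and 2.34 per kb in CUTs. Among tested units without an entry it was 1.54 per kb both in the 35 called higher and in the 98 others. A match is a description of letters and not a binding site.

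The 88 units not tested were low in every library, with at most 19 reads in any of them, and 84 of them are antisense. Their opposite genes stood at a median percentile of 80.9 in WT. At 5 units no read was found in any library, and at 38 at least 1 library had 0 reads. Of the 88, 87 overlap no entry, so the counts given above for that group speak only for its 133 more abundant members.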

How the data were processed

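RNA-Seq of *rrp6Δ* and WT cells was re-analysed, with 2 libraries per strain. By the methods, reads were mapped with TopHat, densities were normalized on ERCC signals and segments were called with ZINAR. The nc-TUs are a set the study takes from earlier work it cites, and how that set was selected is not given in the sources used here. The authors deposited the values as signal: normalized read counts and densities. All were whole reads times a factor per library (100% within 1e-06), and 4 columns that sum replicates were not used. The members and lists were chosen with earlier results of these data known.

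Pieces of coding sequence and 28 duplicated entries were left out. limma 3.58.1 with a trend (R 4.3.3) was run on log2(normalized read count + 0.729), which understates changes of low transcripts, after filterByExpr of edgeR 4.0.16 (minimum count 10). Fold changes are on that scale, and SE is that of the fit. edgeR's quasi-likelihood test and DESeq2 1.42.0 on the recovered reads were alternatives. The test was checked on simulated data. Replicates of a strain differed beyond sampling noise. Coordinates are those of the files, whose coding sequences open with ATG in 99.9% of cases in ASM294v3.

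Named units were chosen by rule. Of called units whose strains did not overlap and whose mean log2 expression passed that of the median tested unit, these were the 8 largest rises and 5 largest falls without an entry (7 and 1 qualified), the 6 largest rises and 4 largest falls with one (6 and 0 qualified), then the 5 densest in WT and, above the same limit, the 4 least changed without an entry, and the coding genes beside them. Others are said to be named after their values were seen, as were novelncTU_133, novelncTU_291, novelncTU_447, novelncTU_342, novelncTU_343, novelncTU_345, novelncTU_346, novelncTU_199, novelncTU_466 and novelncTU_213, and the units named only by their share of an opposite gene. RefSeq names and sequences are from ASM294v3. The sequence of 1 named unit is not reported here.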

Additional observations from a re-analysis of the deposited data

How the results depend on the processing

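Counts below are units called higher, then lower, for all units, those without an entry and those with one, against 135 and 6, 35 and 5, and 100 and 1 with the deposited factors. DESeq2 with its own size factors gave 63 and 29, 20 and 14, and 43 and 15. The same size factors in limma, added after seeing the data, gave 68 and 34, 23 and 19, and 45 and 15. TMM over all transcripts gave 75 and 27, 24 and 17, and 51 and 10, and TMM over coding genes 109 and 11, 31 and 7, and 78 and 4. Quantile normalization gave 29 and 170, 11 and 80, and 18 and 90. With no fold limit they were 212 and 18, 54 and 8, and 158 and 10. DESeq2 with deposited factors called 3 lower (2 without an entry), as did a pseudocount 10 times larger (3 and 2) and a minimum count of 50 (3 and 2, with 19 higher without an entry). No filter gave 56 higher without an entry, and library totals 3 lower with one. Leaving out the units under 1% of the opposite gene, added after seeing the data, left 30 higher and 1 lower, with a median of 0.67, which the limit favours since it also had to hold in *rrp6Δ*. Over all transcripts tested, these scalings shifted the median by -0.54 (TMM), -0.25 (TMM over coding genes), -0.65 (DESeq2 size factors) and -0.72 (quantiles). The medians of the units, against 0.59, 0.38 and 0.68, were 0.054, -0.16 and 0.14 (TMM), 0.35, 0.13 and 0.43 (TMM over coding genes), -0.064, -0.28 and 0.021 (DESeq2 size factors in limma) and -0.79, -1.46 and -0.60 (quantiles). Leaving out 1 library gave 122 to 148 higher and 5 to 7 lower, 31 to 40 and 4 to 7 without an entry, and 88 to 108 and 0 to 2 with one, and medians of 0.52 to 0.67, 0.35 to 0.50 and 0.63 to 0.78. Where an entry had to cover at least 50% of a unit to count, 47 without an entry were called higher. Replicate numbers only name the libraries, since same-numbered deviations correlated at 0.01, and the replicate block gave 135 and 7, 35 and 6, and 100 and 1.

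Of single units, these changed sign. With DESeq2 and its own size factors the log2 fold changes of novelncTU_468, novelncTU_410, novelncTU_89, novelncTU_45 and novelncTU_372 were -0.42, -0.31, -0.19, -0.48 and -0.13. With these size factors in limma they were -0.42, -0.30, -0.19, -0.48 and -0.10. TMM over all transcripts gave -0.30, -0.18, -0.075 and -0.36 for the 4 units named ahead of novelncTU_372. TMM over coding genes gave -0.0061 for novelncTU_468 and -0.070 for novelncTU_45. Quantile normalization gave -0.17 for novelncTU_50, -0.53 for novelncTU_89 and -1.39 for novelncTU_45. Leaving out 1 library put novelncTU_289 between -0.26 and 0.019, its highest value without WT replicate 2. With 2 libraries per strain, changes of units with few reads were measured least precisely.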
